A study of Mus musculus with 6 samples.

Results

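The 8 genes described here encode proteins of the presynaptic vesicle and of the machinery that releases its contents: Snap25, Stx1a, Vamp2, Syt1, Syp, Syn1, Syn2 and Bsn. They were chosen by gene symbol, and each matched 1 of the 47728 genes in the deposited count table. RNA was sequenced from the cerebral cortex of FAD5x mice and of C57BL/6 mice, labelled Control, with 3 libraries in each group. FAD5x mice model Alzheimer's disease through human transgenes that hold mutations of the familial disease and are driven by the neuronal Thy1 promoter cassette. No drug treatment is named for either group, and the age, the sex and the number of animals are not given in the sources used here. FAD5x replicates 1 and 2 carry the library names AD_2 and AD_2_B, and whether they come from the same animal is not given. The p-values below therefore rest on library-to-library spread, part of which may be technical. The libraries held 17972967 to 24137936 counts in FAD5x and 17363946 to 18188112 counts in Control.

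Transmitter release begins when the vesicle protein synaptobrevin (Vamp2) zips together with syntaxin (Stx1a) and SNAP-25 (Snap25) of the plasma membrane, forming the SNARE complex that pulls the membranes into contact. Synaptotagmin (Syt1) senses the calcium that triggers fusion, synaptophysin (Syp) is an abundant vesicle membrane protein that binds synaptobrevin, synapsins (Syn1 and Syn2) tether the reserve pool of vesicles, and bassoon (Bsn) organises the active zone where vesicles dock. Loss of synapses and of presynaptic proteins is a well-known feature of Alzheimer's disease, which makes these genes common readouts of synapse content in cortex.

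Levels are counts-per-million (CPM) values, counts scaled by library total and normalisation factor, and log2 fold changes, given with a standard error (SE), set FAD5x over Control. Some libraries stood apart. FAD5x replicate 1 had a summed level of 1349.8 CPM over 7 striatal neuron markers, against 194 to 253 CPM in the other FAD5x libraries and 151 to 206 CPM in Control. FAD5x replicate 2 had 129 CPM of Gfap, the intermediate filament of reactive astrocytes, whereas FAD5x replicates 1 and 3 had 1508 and 914 CPM, and the Control libraries had 119 to 193 CPM. Control replicate 1 had 3 counts of Xist and 3124 counts over Ddx3y, Uty, Kdm5d and Eif2s3y, while in the other 5 the Xist count was 10346 to 22631 and those Y-linked genes summed to 9 or fewer. The defining markers of cortical excitatory neurons were present in every library, with 4028 to 8547 CPM over 8 genes in FAD5x and 4814 to 7266 CPM in Control. In bulk tissue, fewer neurons and less RNA per neuron cannot be told apart.

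None of the 8 genes passed the test between FAD5x and Control. All 8 passed the filter on low counts, and 0 were called by edgeR's quasi-likelihood test at an adjusted p below 0.05, a threshold passed by 3.15% of the 17074 tested genes. By limma-voom 0 were called, against 2.76% of tested genes, and by DESeq2 0 were called, against 8.70%. At an unadjusted p below 0.05 there was 1 member, Snap25, against 21.3% of tested genes. The groups overlapped for each of the 8 genes, whereas they did not overlap for 27.4% of tested genes. Over the 8 genes the median log2 fold change was -0.07, with 3 above 0 and 5 below, and 0.02 over all tested genes.

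**Figure D1:**
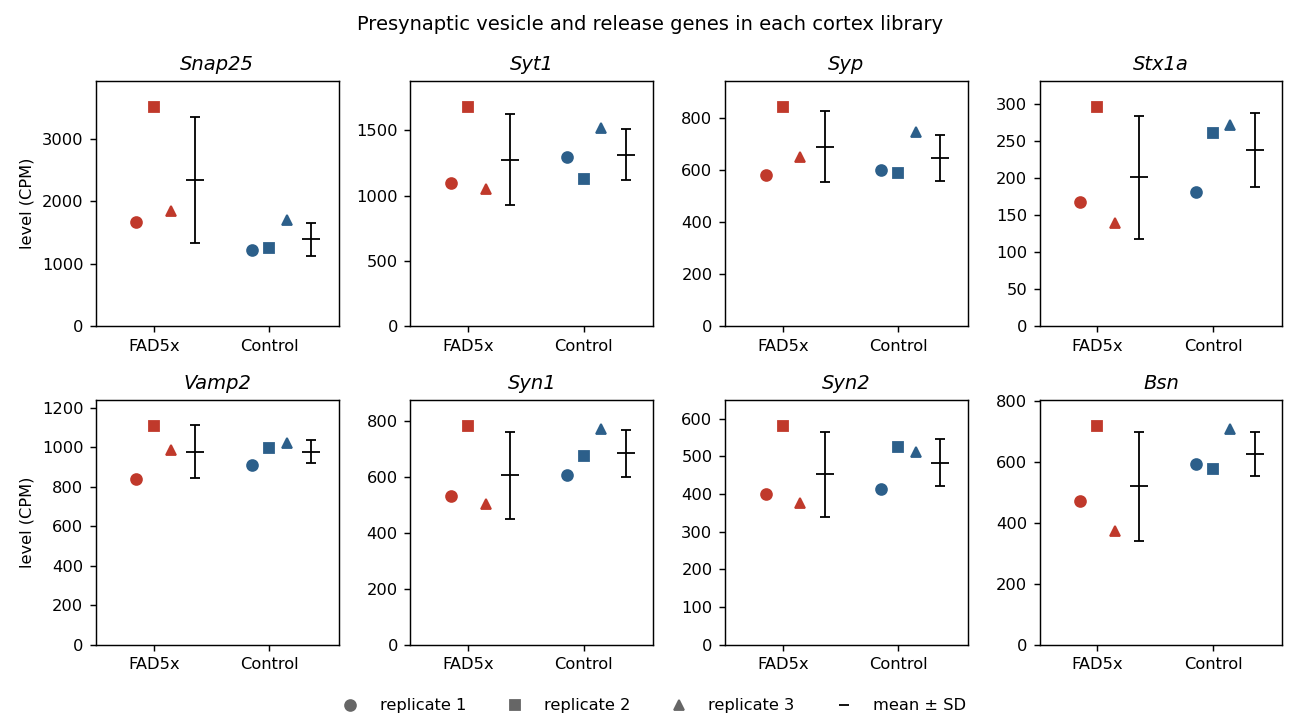
Level of each gene in CPM (vertical axis, linear, from 0) in the 3 FAD5x libraries (red) and the 3 Control libraries (blue), with the mean and SD of each group in black. FAD5x replicate 2 (red square) was the highest of the 6 libraries for all 8 genes, and the groups overlapped in every panel.

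Among the SNARE genes, Snap25 (ENSMUSG00000027273), which contributes a pair of helices to the complex from the plasma membrane side, had the largest difference. It stood at 1669, 3508 and 1844 CPM across FAD5x replicates 1 to 3, against 1221, 1254 and 1692 CPM across Control replicates 1 to 3. FAD5x replicate 2 was far above all others, and FAD5x replicate 1 lay just below Control replicate 3. The mean was 2340.3 ± 1014.9 CPM in FAD5x and 1389 ± 263 CPM in Control (SD, n = 3 each), a 1.68-fold difference (log2 0.75 ± 0.30 SE; edgeR quasi-likelihood test, adjusted p = 0.202). Without FAD5x replicate 2 the ratio was 1.27-fold (log2 0.35 ± 0.19, adjusted p = 0.319).

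Stx1a (ENSMUSG00000007207), the plasma membrane syntaxin, is the partner of SNAP-25 in the SNARE complex, with 167, 295 and 139 CPM in the FAD5x libraries against 180.4, 261 and 271 CPM in the Control libraries, in replicate order. FAD5x replicates 1 and 3 were below all 3 Control libraries, and FAD5x replicate 2 was above them. Its log2 fold change of -0.24 ± 0.29 did not pass the test (edgeR adjusted p = 0.680). Vamp2 (ENSMUSG00000020894), the vesicle SNARE of most central synapses, had 838, 1109 and 987 CPM in the FAD5x libraries against 911, 997 and 1023 CPM in the Control libraries. The groups lay over each other, with means of 978 ± 136 CPM in FAD5x and 977.1 ± 58.5 CPM in Control (SD, n = 3 each). Its log2 fold change was 0.0011 ± 0.16, and its SE was the smallest of the 8 (edgeR adjusted p = 0.998). The sign of so small a value changed with the scaling, to -0.019 with library totals only.

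Vamp1, a paralog of Vamp2 and the synaptobrevin of many fast-firing neurons, had 89.0, 226 and 86.1 CPM in the FAD5x libraries against 58.0, 60.8 and 91.2 CPM in the Control libraries (log2 fold change 0.93 ± 0.39, edgeR adjusted p = 0.229). As for Snap25, FAD5x replicate 2 stood far above the other libraries, and without it the log2 fold change of Vamp1 was 0.33.

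Syt1 (ENSMUSG00000035864), the calcium sensor for fast release, had 1093, 1677 and 1053 CPM in the FAD5x libraries against 1292, 1129 and 1521 CPM in the Control libraries. FAD5x replicates 1 and 3 were the lowest libraries and FAD5x replicate 2 the highest (log2 fold change -0.04 ± 0.22, edgeR adjusted p = 0.936). Syp (ENSMUSG00000031144), the synaptophysin gene widely used to count synapses, had 581, 843 and 649.6 CPM in the FAD5x libraries against 602, 589.8 and 749 CPM in the Control libraries. Its groups overlapped, and its log2 fold change was 0.10 ± 0.19 (adjusted p = 0.815). Syp is X-linked, and Control replicate 1, the library with 3 Xist counts, lay between the other Control libraries. In an annotation of an earlier mouse build, 16.8% of the exonic length of Syp is shared with Gm14703 on the opposite strand. The sources used here do not give the strandedness, so reads of the shared stretch cannot be assigned, but Gm14703 averaged 38.3 counts per library. The other members shared at most 1.28% of their exonic length with another gene.

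None of the synapsins passed the test. Syn1 (ENSMUSG00000037217), also X-linked, had 529, 781 and 501 CPM in the FAD5x libraries against 605, 673 and 769.9 CPM in the Control libraries. Syn2 (ENSMUSG00000009394), its autosomal paralog, had 399, 581 and 376 CPM in the FAD5x libraries against 413, 526 and 512 CPM in the Control libraries. For both genes FAD5x replicates 1 and 3 were below every Control library and FAD5x replicate 2 was above every one. The log2 fold changes were -0.18 ± 0.21 for Syn1 and -0.10 ± 0.20 for Syn2 (edgeR adjusted p = 0.670 and 0.826). Syn3, the third synapsin, was expressed at 12.5, 27.4 and 9.98 CPM in the FAD5x libraries against 24.7, 18.4 and 17.3 CPM in the Control libraries, with the same arrangement of libraries (log2 -0.28 ± 0.36, adjusted p = 0.709).

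Sequences upstream of Syn1 and Bsn are shown because these members stood lower in FAD5x relative to the other 7, as given below. That of Syn2 is shown as the paralog of Syn1. The higher ratio of Snap25 lowers those of Syn1 and Bsn by construction, and neither gene passed the test. A link between the motifs and the levels was not tested. The sequences are from RefSeq on GRCm38.p6, an earlier build than that of the counts. They are cut to bases before every annotated start of the gene. Capitals mark matches, on either strand, to TTCAGCACC, the left part of the RE1 element bound by the neuronal repressor REST, to the cyclic AMP response element TGACGTCA, to GCGCATGC, the core of the NRF1 motif, and to the GC box GGGCGG. The Syn1 stretch is chrX:20921005-20921168 on the minus strand, the Syn2 stretch chr6:115134652-115134901 on the plus strand, and the Bsn stretch chr9:108190385-108190633 on the minus strand.
Syn1: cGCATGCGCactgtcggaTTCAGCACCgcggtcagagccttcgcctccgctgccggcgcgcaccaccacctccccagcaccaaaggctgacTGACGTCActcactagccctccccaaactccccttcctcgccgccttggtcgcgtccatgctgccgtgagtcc
Syn2: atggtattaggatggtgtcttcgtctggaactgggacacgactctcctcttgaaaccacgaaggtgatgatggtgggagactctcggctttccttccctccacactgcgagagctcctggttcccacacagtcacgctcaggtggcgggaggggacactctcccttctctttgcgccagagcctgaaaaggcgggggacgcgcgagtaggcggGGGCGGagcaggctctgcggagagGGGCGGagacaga
Bsn: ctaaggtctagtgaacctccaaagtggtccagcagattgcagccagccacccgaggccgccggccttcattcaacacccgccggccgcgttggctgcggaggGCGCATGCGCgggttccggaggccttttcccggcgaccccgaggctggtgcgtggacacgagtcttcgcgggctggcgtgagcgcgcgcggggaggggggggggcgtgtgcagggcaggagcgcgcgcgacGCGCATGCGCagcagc
The shown stretch of Syn1 held the RE1 part, the cyclic AMP element and an NRF1 core. That of Bsn held NRF1 cores at a pair of places, each a palindrome in which matches on both strands overlap, and that of Syn2 held GC boxes. Over the 250 bases before each of 32851 RefSeq starts, 0.3% held TTCAGCACC, 1.55% TGACGTCA, 2.26% GCGCATGC and 32.74% GGGCGG. Of the 8 such windows for 6 members, 1, 1, 2 and 4 held these motifs in that order, so no motif searched was common to all. Unlike the sequences shown, these windows were not cut at annotated starts. With that cut, the windows of Syp and Syt1 held none of the motifs, and a window each of Syn2 and Syt1 had 0 bases left. Snap25 and Vamp2 had no entry in the table.

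Bsn (ENSMUSG00000032589), a very large scaffold of the active zone, had 471, 718 and 371 CPM in the FAD5x libraries against 592, 577 and 709 CPM in the Control libraries. FAD5x replicates 1 and 3 were below all Control libraries, and FAD5x replicate 2 was slightly above the highest of them. The log2 fold change of -0.27 ± 0.24 was the lowest of the 8 genes and did not pass the test (edgeR adjusted p = 0.573). With the trend of counts on length taken out of each library it was -0.017 (edgeR adjusted p = 0.980). Stx1a, at -0.35, was then the lowest.

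The balance of these genes rested on FAD5x replicate 2. It was the highest of the 6 libraries for 8 of 8 genes, as it was for 23.0% of all tested genes. Of the pan-neuronal markers it was the highest for 8 of 14. In the wider lists described below it was the highest for 12 of 25 vesicle membrane and 11 of 23 endocytosis genes. The same held for 12 of 33 fusion machinery genes and 4 of 25 active zone genes. The mean of the 8 genes, as a log2 deviation from their mean over the 6 libraries, was -0.22, 0.43 and -0.25 across FAD5x replicates 1 to 3, against -0.14, -0.02 and 0.20 across Control replicates 1 to 3. When FAD5x replicate 2 was left out, 7 of the 8 log2 fold changes were below 0 and the median of the 8 was -0.30. Because the library left out was the highest for all 8 genes, lower values follow by construction. In that fit 0 members were called, against 5.59% of tested genes, while 3 were lower at an unadjusted p below 0.05, against 10.7% of tested genes. Those were Bsn (log2 -0.57 ± 0.17, edgeR adjusted p = 0.0879), Stx1a (-0.62 ± 0.19, adjusted p = 0.0974) and Syn1 (-0.40 ± 0.16, adjusted p = 0.174). Leaving out FAD5x replicate 1 or 3 instead gave a median of 0.02 or 0.0094, and leaving out Control replicate 1, 2 or 3 gave -0.13, -0.09 or -0.0060.

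**Figure D2:**
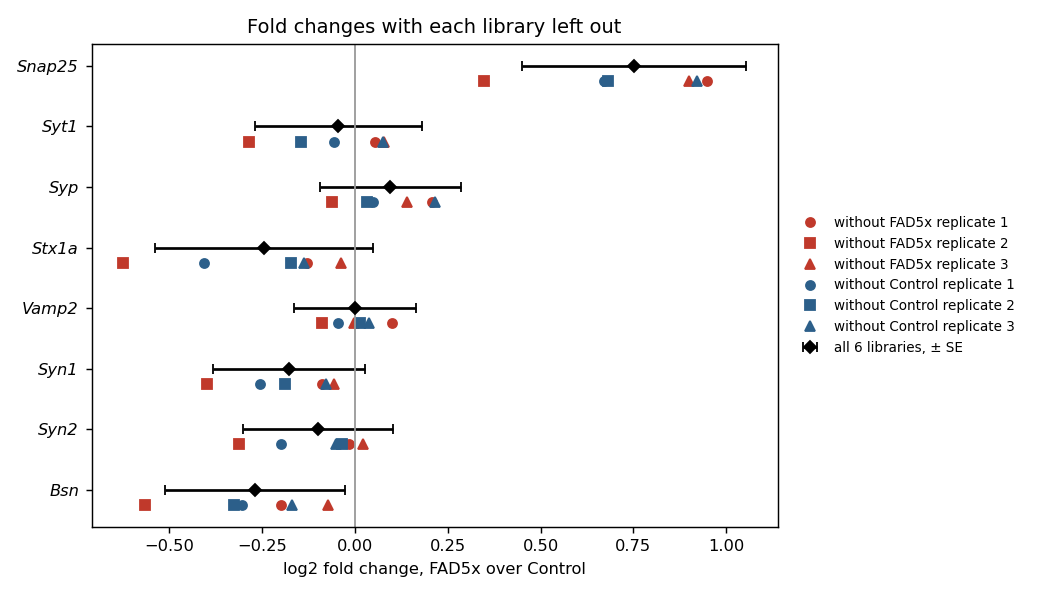
Log2 fold change of each gene, FAD5x over Control (horizontal axis), with all 6 libraries (black diamond, bar ± SE) and with each library left out in turn (coloured symbols). Leaving out FAD5x replicate 2 (red square), the highest library for all 8 genes, lowers each value by construction, and it gave the lowest value for all 8. Snap25 stayed above 0 with any library left out (0.35 to 0.95).

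Of 8 excitatory neuron markers, 5 were highest in FAD5x replicate 2, and Camk2a, Neurod6 and Neurod1 were highest in a Control library. Their summed level was 5185, 8547 and 4028 CPM across FAD5x replicates 1 to 3, against 4814, 7266 and 6683 CPM across Control replicates 1 to 3, a sum in which Camk2a has the largest share. Of 7 inhibitory neuron markers, 2 were highest in FAD5x replicate 2, Pvalb and Lhx6. Pvalb, a marker of fast-spiking interneurons, stood at 19.3, 60.6 and 20.5 CPM across FAD5x replicates 1 to 3, against 11.9, 15.1 and 31.6 CPM across Control replicates 1 to 3. The inhibitory sum, in which Gad1 has the largest share, was 931, 849.7 and 1137 CPM in the FAD5x libraries against 1396, 1001 and 947 CPM in the Control libraries. Of 8 microglial, 8 oligodendrocyte and 7 astrocyte markers, 0 were highest in FAD5x replicate 2. The microglial sum was 852, 414 and 530 CPM across FAD5x replicates 1 to 3, against 266, 406 and 271 CPM across Control replicates 1 to 3. The oligodendrocyte sum was 7651, 3937.5 and 5130 CPM in the FAD5x libraries against 2817, 3264 and 4155 CPM in the Control libraries. FAD5x replicate 2 was thus the lowest FAD5x library for both sums, close to the highest Control library. The astrocyte sum was 3556 to 6173 CPM in FAD5x and 4005 to 5773 CPM in Control. None of the tested markers of these lists was at 0 in any library. The part of cell composition in the levels of the 8 genes was not tested.

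**Figure D3:**
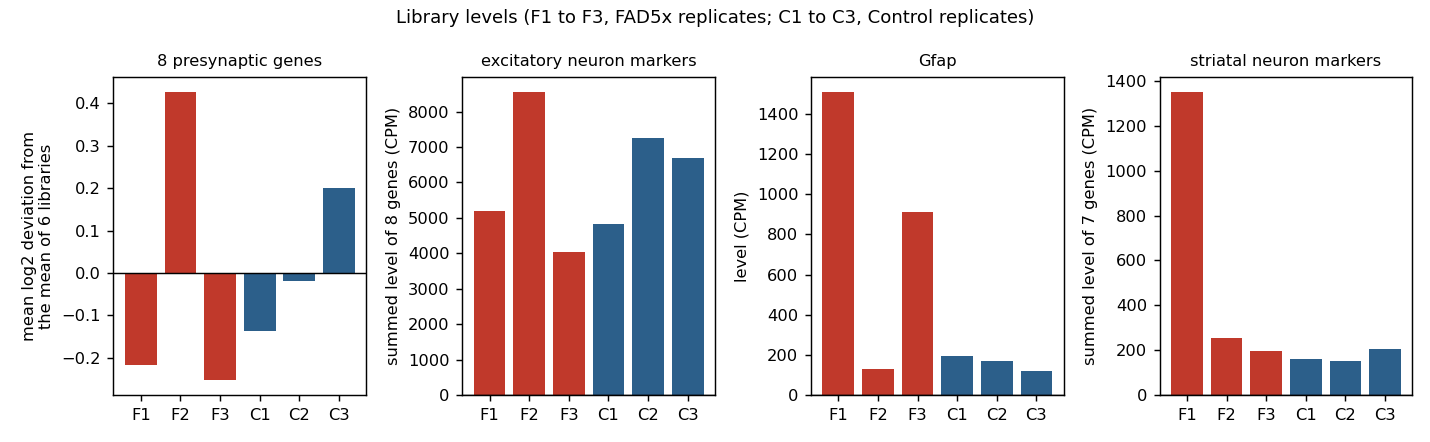
Per library, from left to right: mean log2 deviation of the 8 presynaptic genes, summed CPM of 8 excitatory neuron markers, CPM of Gfap and summed CPM of 7 striatal neuron markers (linear axes; red, FAD5x; blue, Control). FAD5x replicate 2 was highest in the first 2 panels and had Gfap at the level of Control, and FAD5x replicate 1 had the striatal signal.

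Ratios within a library, which do not depend on scaling between libraries but keep any trend of counts on length, separated Snap25 from the rest. Relative to the mean log2 level of the other 7 genes, Snap25 stood at 1.71, 2.20 and 1.92 across FAD5x replicates 1 to 3, against 1.11, 1.02 and 1.26 across Control replicates 1 to 3. The FAD5x libraries were all above the Control libraries, by 0.82 on average, and FAD5x replicate 2 was no longer far from the others. Syn1 was lower on this measure, at -0.18, -0.28 and -0.23 in FAD5x and -0.05, -0.01 and -0.04 in Control. Bsn was lower as well, at -0.37, -0.41 and -0.72 in FAD5x and -0.09, -0.26 and -0.18 in Control. It is the longest of the 8 genes, with 15938 exonic bases, and its ratio with the length trend taken out is not given here. The groups did not overlap for these 3 of 8 genes, against 14.4% of other tested genes set against the mean of the 8. That share has a different base and is not a like comparison. Snap25 is among the 7 genes that Syn1 and Bsn were set against, so its higher ratio lowers theirs by construction. Their ratios with Snap25 left out are not given here, so a shift of Syn1 and Bsn apart from Snap25 is not shown. The ratio to the other members was chosen after the levels had been seen and carries no test.

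**Figure D4:**
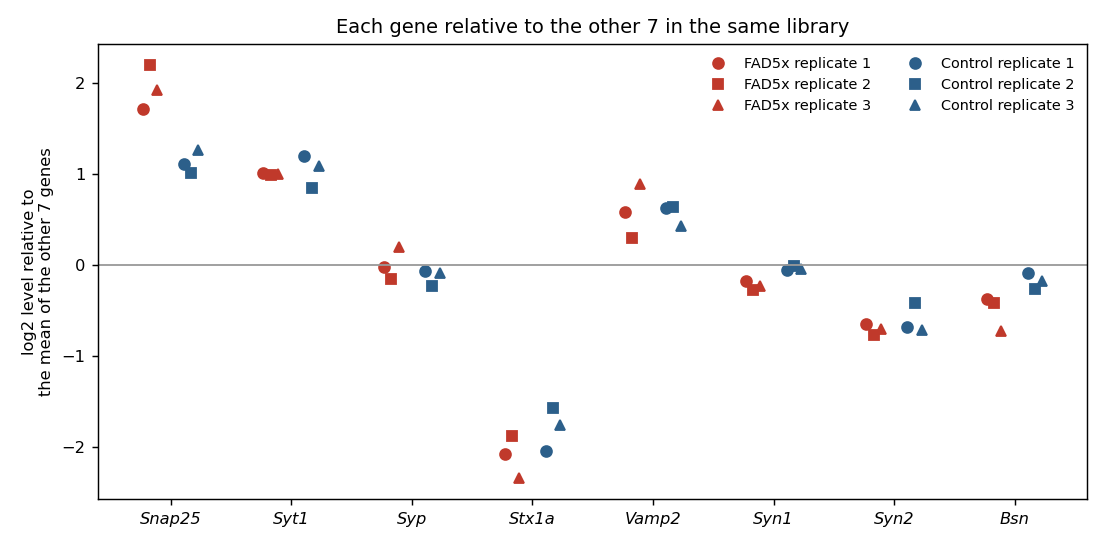
Log2 level of each gene minus the mean log2 level of the other 7 in the same library (vertical axis), for FAD5x libraries (red, left) and Control libraries (blue, right). The groups did not overlap for Snap25 (1.71 to 2.20 in FAD5x, 1.02 to 1.26 in Control), Syn1 and Bsn. Snap25 is among the genes that Syn1 and Bsn were set against.

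Set against the mean log2 level of 14 pan-neuronal markers, Snap25 was higher in FAD5x and the other 7 members were lower. The markers themselves had a median log2 fold change of 0.23, with 10 of the 14 above 0. A rise of the markers lowers these ratios by construction. By their own log2 fold changes, 3 members were above 0 and 5 below. The mean log2 difference, FAD5x minus Control, was 0.43 for Snap25, -0.46 for Syn1, -0.38 for Syn2, -0.58 for Bsn and -0.17 for Syp, and the groups did not overlap for these 5 genes, against 25.6% of other tested genes. The groups overlapped for Stx1a (-0.56), Syt1 (-0.33) and Vamp2 (-0.27). These ratios also keep any trend of counts on length, and Bsn has 15938 exonic bases against a median of 4349.5 for the markers. Thy1 is among the markers, and it rose in FAD5x (log2 1.62, edgeR adjusted p = 0.0456), with 1476, 702 and 1749.7 CPM in the FAD5x libraries against 345, 398 and 532 CPM in the Control libraries. Its promoter cassette also drives the transgenes. With Thy1 left out, which was decided on seeing these values, the differences were 0.53 for Snap25, -0.36 for Syn1, -0.28 for Syn2 and -0.48 for Bsn, and the other 4 members were again below 0. The groups did not overlap for these 4 genes, against 19.0% of other tested genes, and those of Syp did. The sum of the other 13 markers was 4239, 5110 and 4013 CPM in the FAD5x libraries against 3771, 4169 and 4545 CPM in the Control libraries, so the groups overlapped. That sum is not the mean log2 level used in the ratios.

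Levels in CPM per kilobase of exon, which allow the 8 genes to be compared with each other, were highest for Snap25 and Vamp2 and lowest for Bsn. Snap25 had 345 ± 149 in FAD5x and 205 ± 39 in Control, and Vamp2 had 257 ± 36 in FAD5x and 257 ± 15 in Control (SD, n = 3 each). Syn1 followed with 183 ± 47 in FAD5x and 207 ± 25 in Control, then Syt1 with 153 ± 42 in FAD5x and 158 ± 24 in Control. Syp had 133 ± 26 in FAD5x and 124 ± 17 in Control, and its range overlapped that of Syt1 in both groups. Stx1a had 75.3 ± 31.2 in FAD5x and 89.1 ± 18.7 in Control, Syn2 had 64.3 ± 16.0 in FAD5x and 68.8 ± 8.8 in Control, and Bsn had 32.6 ± 11.2 in FAD5x and 39.3 ± 4.5 in Control. In FAD5x the ranges of neighbours in this order overlapped, apart from Stx1a below Syp and Bsn below Syn2. In Control the order began with Vamp2, Syn1 and Snap25, and the ranges were apart at those same places and between Vamp2 and Syn1. The length used is the union of all annotated exons, 6791 bases for Snap25, and with the median length of coding transcripts in its place, 1565 bases, the order changed in both groups. Snap25 then led, with 1495 in FAD5x and 888 in Control, and Vamp2 followed. Syp came next, with 448 in FAD5x and 419 in Control, above Syt1, with 266 in FAD5x and 275 in Control, and Syn1 came after Syt1, with 187 in FAD5x and 211 in Control. The places of Syn1, Syt1 and Syp therefore depend on the length used, whereas Stx1a, Syn2 and Bsn came last in that order with both lengths.

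The genes whose profile over the 6 libraries was most like the mean of the 8 were found by the root mean square difference of log2 deviations. The closest was Dnm1, the neuronal dynamin that pinches off vesicles during endocytosis, which differed by 0.027 log2 units. It had 1100.3, 1741 and 1033 CPM in the FAD5x libraries against 1172, 1223 and 1467 CPM in the Control libraries. Tmem38a, an intracellular cation channel (0.033), Actr1b, an actin-related subunit of dynactin (0.036), Ptk2, focal adhesion kinase (0.037), and Ywhag, a 14-3-3 adaptor (0.052), came next. Among the members the same measure ran from 0.089 for Syn1 and 0.094 for Syt1 to 0.215 for Stx1a and 0.383 for Snap25. With 6 libraries and many genes, close matches are easily found, so the values are descriptive.

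The wider presynaptic machinery was read from 4 lists with 106 tested genes. Active zone scaffolds, channels and adhesion genes stood lower in FAD5x, with 3 of 25 fallen and 0 risen, where 1.39% of all tested genes fell. At an unadjusted p below 0.05, 11 of the 25 were lower, against 10.1% of tested genes. The groups did not overlap, with FAD5x lower, for 13 of the 25, against 13.2%. The list median was -0.32, with 21 of 25 genes below 0, and the median of all tested genes was 0.02. With the trend of counts on length taken out of each library, 18 of the 25 were below 0. In that fit 6 were lower and 2 higher at an unadjusted edgeR p below 0.05, against 1477 and 1676 of 16989 tested genes. The lists were chosen with earlier results of these data known.

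Rims4, a small member of the RIM family of active zone organisers, stood at 87.0, 100.7 and 91.2 CPM in the FAD5x libraries against 145, 159.8 and 151 CPM in the Control libraries. All FAD5x libraries were below all Control libraries (log2 fold change -0.71 ± 0.12, edgeR adjusted p = 0.0235). Erc1, an ELKS scaffold, fell to 36.6, 36.0 and 26.3 CPM in FAD5x, against 56.5, 59.4 and 62.7 CPM in Control (log2 -0.85 ± 0.15, adjusted p = 0.0240). Cask, a scaffold kinase that binds neurexins, fell to 76.5, 67.5 and 75.4 CPM in FAD5x, against 120.4, 109.8 and 100.7 CPM in Control (log2 -0.59 ± 0.12, adjusted p = 0.0440). Cask is X-linked, and its highest library was Control replicate 1, the library with 3 Xist counts. Without that library the log2 fold change of Cask was -0.52 (edgeR adjusted p = 0.189). FAD5x replicate 2 did not stand above the Control libraries for any of these 3 genes. Without any one Control library none of the 3 was called, with adjusted p from 0.0863 to 0.189, and the same held without FAD5x replicate 1 (0.0553 to 0.0889). Cask also lost its call without FAD5x replicate 2 (0.0512) and without FAD5x replicate 3 (0.0608), whereas Rims4 and Erc1 kept theirs. The genes of this list are long, with a median exonic length of 9942 bases, against 4639 to 5663 in the other lists. With the trend of counts on length taken out of each library the list median was -0.14, and Rims4 kept its call (log2 -0.69, adjusted p = 0.0284). Erc1 and Cask were no longer called, with log2 fold changes of -0.61 and -0.46 (adjusted p = 0.0631 and 0.0875).

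The other lists held no called gene by edgeR. Of all tested genes, 3.15% were called by edgeR, 2.76% by limma-voom and 8.70% by DESeq2. An unadjusted edgeR p below 0.05 was reached by 21.3% in either direction and by 10.1% with FAD5x lower. Of 33 genes for the fusion machinery and its regulators 0 were called, with 2 higher and 1 lower at an unadjusted p below 0.05, 0 by limma-voom and 1, Syt5, by DESeq2. The most abundant was Cplx2, a complexin that clamps SNARE complexes, with 1428, 1750.0 and 903 CPM in the FAD5x libraries against 766, 1021 and 1072 CPM in the Control libraries (log2 0.51 ± 0.26, edgeR adjusted p = 0.297). Of 25 vesicle membrane and vesicle-bound genes 0 were called, with 4 lower at an unadjusted p below 0.05, 0 by limma-voom and 2, Slc17a6 and Synpr, by DESeq2. Here Slc17a7, the vesicular glutamate transporter of cortical neurons, had 1047, 1676 and 1143 CPM in the FAD5x libraries against 1016, 1282 and 1505 CPM in the Control libraries (log2 0.02 ± 0.23, adjusted p = 0.969), and Atp6v1b2, a proton pump subunit, had a log2 fold change of 0.09 ± 0.18 (0.824). Of 23 endocytosis genes 0 were called, with 1, Cltc, the clathrin heavy chain, lower at an unadjusted p below 0.05, 0 by limma-voom and the same gene by DESeq2. Cltc stood at 522, 495 and 469 CPM in the FAD5x libraries against 678, 616 and 670.5 CPM in the Control libraries (log2 -0.40 ± 0.14, edgeR adjusted p = 0.148). The medians of these lists were 0.0092, -0.0092 and 0.0045.

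**Figure D5:**
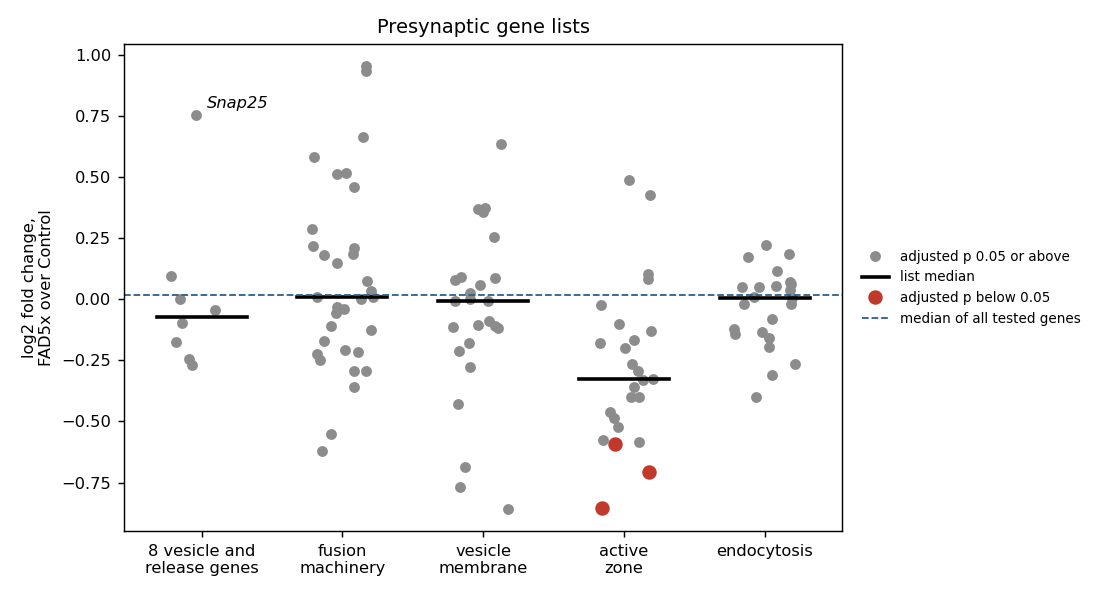
Log2 fold change, FAD5x over Control (vertical axis), of each tested gene of the 8 vesicle and release genes and of 4 wider lists; red points have an adjusted p below 0.05, black bars are list medians and the dashed line is the median of all tested genes. The active zone list had a median of -0.32 and the 3 called genes, and the medians of the other lists lay within 0.1 of the line.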

How the data were processed

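The members and gene lists were chosen with earlier results of these data known. The authors deposited 1 table of raw counts by gene and library. The build GRCm39 and the tools STAR 2.7.11b, cutadapt, featureCounts, limma and edgeR 3.38.4 are named, per the submitters' processing notes, with no settings. Of 47729 lines, 1 with a non-numeric cell was dropped. Symbols, types and exonic lengths came from GENCODE M21, an earlier build, matched by identifier for 47223 genes.

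The test was that of edgeR 4.0.16 under R 4.3.3 (filterByExpr, trimmed mean of M values, robust quasi-likelihood F-test, two-sided, Benjamini-Hochberg over 17074 genes, called below 0.05). SEs follow from the fold change and F statistic. Alternatives used limma 3.58.1, DESeq2 1.42.0, other scalings and filters, and left-out libraries. Steps were tested on simulated counts. FAD5x replicates 1 and 2 were used as the labels list them, as separate samples. The chi-square between their counts, divided by its degrees of freedom, was 63.5, so they are not 1 library deposited in duplicate, but this does not show separate animals. Profiles used log2(CPM + 0.5) and genes with a mean of at least 10 CPM. Named list genes were up to 4 called by smallest p, or else the 2 most abundant, and paralogs of members; some of these are not reported here. The endocytosis entry Stn2 was not matched.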

Additional observations from a re-analysis of the deposited data

How the results depend on the processing

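None of the 8 genes was called under any of the 17 alternatives tried for each, and the lowest adjusted p was 0.0809, for Snap25 by DESeq2. Leaving out single libraries gave log2 fold changes of 0.35 to 0.95 for Snap25, -0.62 to -0.04 for Stx1a, -0.089 to 0.101 for Vamp2, -0.284 to 0.078 for Syt1, -0.062 to 0.217 for Syp, -0.40 to -0.06 for Syn1, -0.311 to 0.022 for Syn2 and -0.57 to -0.07 for Bsn. Vamp2, which lies at 0, was -0.004 by limma-voom, by DESeq2 and with median-of-ratios scaling, -0.019 with library totals only, -0.041 with the length trend taken out and -0.007 with the replicate block. Syt1 was 0.078 with the length trend taken out. The count of called genes over all tested genes was 1485 by DESeq2, 1063 with no filter on low counts, 1251 at an adjusted p below 0.1 and 81 to 989 with single libraries left out. That of the wider presynaptic lists, 3 in the fit reported, was 10, 6 and 8 under the first 3 of these and 0 to 4 with single libraries left out. The causes were not tested.

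The replicate block left 72 called genes, with 0 in the presynaptic lists, where Rims4, Erc1 and Cask had adjusted p of 0.113, 0.113 and 0.15 at log2 fold changes of -0.71, -0.87 and -0.59. Nothing in the labels pairs samples of equal number. Deviations from the group means correlated at -0.05, -0.10 and -0.35 for replicates 1, 2 and 3, and at -0.24 to 0.34 for unequal numbers. Deviations of 3 libraries from their own mean sum to 0, so these values cannot exclude a pairing or a shared batch. Cask also lost its call with upper-quartile scaling, library totals only or ribosomal, mitochondrial and pseudogene rows left out (adjusted p = 0.0513, 0.0772 and 0.0519). The per-length levels of 7 members moved by more than their spread with coding transcript lengths, and Syn1 did not. The biological coefficient of variation was 23.3% over 3 libraries a group, and which size of difference this could show was not tested.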

Other observations

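Lin7a, an adaptor that joins Cask in a complex at presynaptic membranes and was singled out after its values were seen, stood at 67.3, 69.3 and 70.3 CPM in the FAD5x libraries against 92.8, 90.2 and 102 CPM in the Control libraries. Its groups did not overlap (log2 fold change -0.46 ± 0.11, edgeR adjusted p = 0.0668), and it was called with the length trend taken out (log2 -0.53, adjusted p = 0.0460), with adjusted p from 0.00929 by DESeq2 to 0.212 over all alternatives. Slc17a6, the vesicular glutamate transporter of thalamic and other subcortical neurons, had 9.48, 11.1 and 15.2 CPM in the FAD5x libraries against 19.9, 17.4 and 23.7 CPM in the Control libraries (log2 -0.77 ± 0.21, adjusted p = 0.0889), beside a log2 of 0.02 for Slc17a7. Syt5, a synaptotagmin, was higher in all FAD5x libraries, at 149, 173 and 146 CPM in the FAD5x libraries against 87.7, 109 and 116 CPM in the Control libraries, and did not pass the test (log2 0.58 ± 0.15, adjusted p = 0.0747). Both were also singled out after their values were seen.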
